A study of Homo sapiens with 2 samples.

Results

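The genes described here are 27 of the 60616 genes listed for RNA-seq of HSC-3 cells: 13 peroxins, which build and supply the peroxisome, and 14 enzymes and transporters of peroxisomal fatty acid oxidation, ether lipid synthesis and peroxide removal. They were selected by gene symbol, from a list of names that uses no measured value in its rule but was drawn up with earlier results of these data known. HSC-3 is an established line from a human squamous cell carcinoma of the tongue. A single library came from cells given the vehicle, 0.1% DMSO, and a single library from cells given FIN56 at 1 µM for 48 h, and the labels state the time for the FIN56 library only. FIN56 is a small molecule that triggers ferroptosis, a form of cell death that runs through peroxidation of membrane lipids. The DMSO library held 70184517 expected counts and the FIN56 library 73062209. With 1 library per condition, no difference given here has a replicate check and no test between conditions was possible.

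Peroxisomes import their enzymes fully folded, through receptors that cycle between the cytosol and the peroxisomal membrane. Inside, they shorten very long and branched fatty acids and carry out the opening steps of ether lipid synthesis, which the endoplasmic reticulum completes to give plasmalogens. Ether phospholipids with polyunsaturated chains are known as substrates of the lipid peroxidation that drives ferroptosis, and catalase in the same organelle breaks down the hydrogen peroxide that the oxidases release.

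The labelled cell type was checked against markers. All 8 squamous and epithelial markers were well above 10 expected counts in both libraries, with a summed level of 8291 TPM (a transcript level per length, with the same total in each library) in DMSO and 7688 TPM in FIN56. The most abundant of them, the basal keratin KRT5, stood at 3109 TPM in DMSO and 2517 TPM in FIN56. In contrast to KRT5 and the sum, 5 of the 8 markers had TPM ratios above 1 (KRT17, KRT6A, TP63, EPCAM and CDH1), the median log2 TPM ratio of the 8 was 0.09, and none passed the fold used below. Of 10 markers of other cell types, PTPRC, CD3E, COL1A2 and ALB had 0 counts in both libraries. The summed level of these 10 was 92.4 TPM in DMSO and 41.4 TPM in FIN56, nearly all of it from CD68, a lysosomal protein that is not limited to macrophages, at 85.7 TPM and 37.6 TPM. CD68 and COL1A1 (6.36 TPM in DMSO and 3.35 TPM in FIN56) fell past the fold used below, and their part in the results was not tested. In such bulk libraries, fewer cells that express a gene and less RNA per cell cannot be told apart.

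The comparison asks how the transcripts of this organelle differed between FIN56 and DMSO, and whether peroxins and enzymes differed alike. A gene was called when its TPM ratio, FIN56 over DMSO, was at least 1.5 or at most 1/1.5, among the 17372 genes whose expected counts reached 10 in both libraries. Of the 27 genes, 26 passed that minimum. FAR2 and AGPS, both of ether lipid synthesis, passed upward (2 of 26, against 8.52% of all genes tested), and HACL1, of alpha-oxidation, passed downward (1 of 26, against 10.2%). None of the 13 peroxins was called. These shares lie near or below those of all genes, so the counts of called genes are not a result about this group. The upward calls of FAR2 and AGPS were lost when expected counts scaled by library totals replaced TPM, whereas HACL1 was lowered on that scale too.

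**Figure D1:**
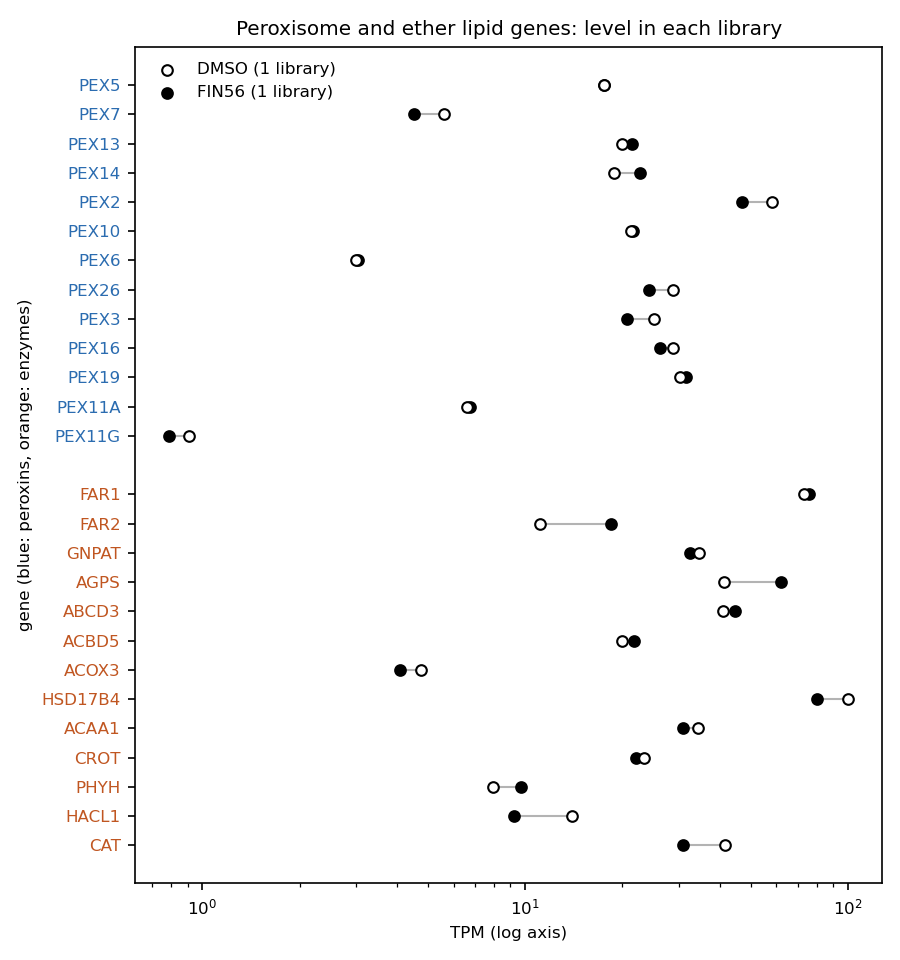
Level of each of the 26 genes tested, in TPM on a log axis, with an open circle for the DMSO library and a filled circle for the FIN56 library (1 library each). Peroxins are named in blue and enzymes in orange. FAR2, AGPS, HACL1 and CAT show the widest gaps between their circles, and PEX5 at 17.5 TPM and 17.6 TPM the narrowest.

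The levels spanned a wide range in both libraries. By TPM the most abundant peroxin was PEX2, and the least abundant was PEX11G at 0.91 TPM in DMSO and 0.79 TPM in FIN56. Among the enzymes HSD17B4 led in both libraries. Summed over the peroxins, the level was 264 TPM in DMSO and 248 TPM in FIN56. Summed over the enzymes, it was 447 TPM in DMSO and 442 TPM in FIN56.

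Peroxins were first considered by the step they serve, beginning with import. PEX5 is the receptor for most matrix enzymes, those with a signal at their end, and stood at 17.5 TPM in DMSO and 17.6 TPM in FIN56. PEX7 is the receptor for the few enzymes with a signal near their start, and stood at 5.62 TPM in DMSO and 4.52 TPM in FIN56, a ratio of 0.804. By expected counts scaled to the library totals, the ratio of PEX7 was 0.750, with a 95% interval of 0.635 to 0.886 (257 counts in FIN56 against 329 in DMSO). That interval was taken from the share of the counts found in FIN56, by the exact Clopper-Pearson method. It covers counting error only, here and throughout, and compares the libraries, not the conditions. The known cargo of PEX7 includes AGPS, ACAA1 and PHYH, whose TPM ratios of 1.502, 0.903 and 1.22 lay on both sides of 1.

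PEX13 and PEX14 form the docking site for the loaded receptors. PEX13 had 19.9 TPM in DMSO and 21.5 TPM in FIN56. PEX14 had 18.8 TPM in DMSO and 22.7 TPM in FIN56, the highest TPM ratio of the 13 peroxins at 1.21. Both docking genes had count ratios whose intervals lay above 1, at 1.17 (1.11 to 1.22) for PEX13 and 1.18 (1.10 to 1.27) for PEX14, and no other peroxin among the 13 did.

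Receptors are taken out of the membrane again by a ubiquitin ligase of RING proteins and an ATPase. Among the RING proteins, PEX2 had 58.1 TPM in DMSO and 47.0 TPM in FIN56, with a count ratio of 0.779 (0.737 to 0.823), while PEX10 had 21.2 TPM in DMSO and 21.5 TPM in FIN56. The interval of PEX10 included 1 (0.969 to 1.10), so these RING proteins differed in how far their counts departed from DMSO. PEX6, a subunit of the ATPase, had 2.99 TPM in DMSO and 3.04 TPM in FIN56. PEX26, which anchors the ATPase to the membrane, had 28.8 TPM in DMSO and 24.2 TPM in FIN56, with a count ratio of 0.901 (0.871 to 0.932).

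PEX3, PEX16 and PEX19 place membrane proteins into peroxisomes, with PEX19 as the soluble carrier and PEX3 as its anchor. PEX3 had 25.1 TPM in DMSO and 20.7 TPM in FIN56, and PEX16 had 28.7 TPM in DMSO and 26.1 TPM in FIN56. Their count ratios were 0.804 (0.748 to 0.863) and 0.830 (0.761 to 0.905). PEX19 had 30.1 TPM in DMSO and 31.6 TPM in FIN56, with an interval that included 1 (0.972 to 1.06). The carrier thus differed less between the libraries than its anchor did.

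PEX11 proteins elongate peroxisomes before division. PEX11A had 6.59 TPM in DMSO and 6.74 TPM in FIN56, and the side of 1 on which its ratio lay changed on 5 of 6 other scales (FPKM, expected counts under 3 scalings, rlog, and TPM centred on the median of all genes), and with FPKM its ratio was exactly 1. PEX11G rested on 42 counts in DMSO and 37 in FIN56, and a difference was not detectable at that depth (0.529 to 1.35).

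**Figure D2:**
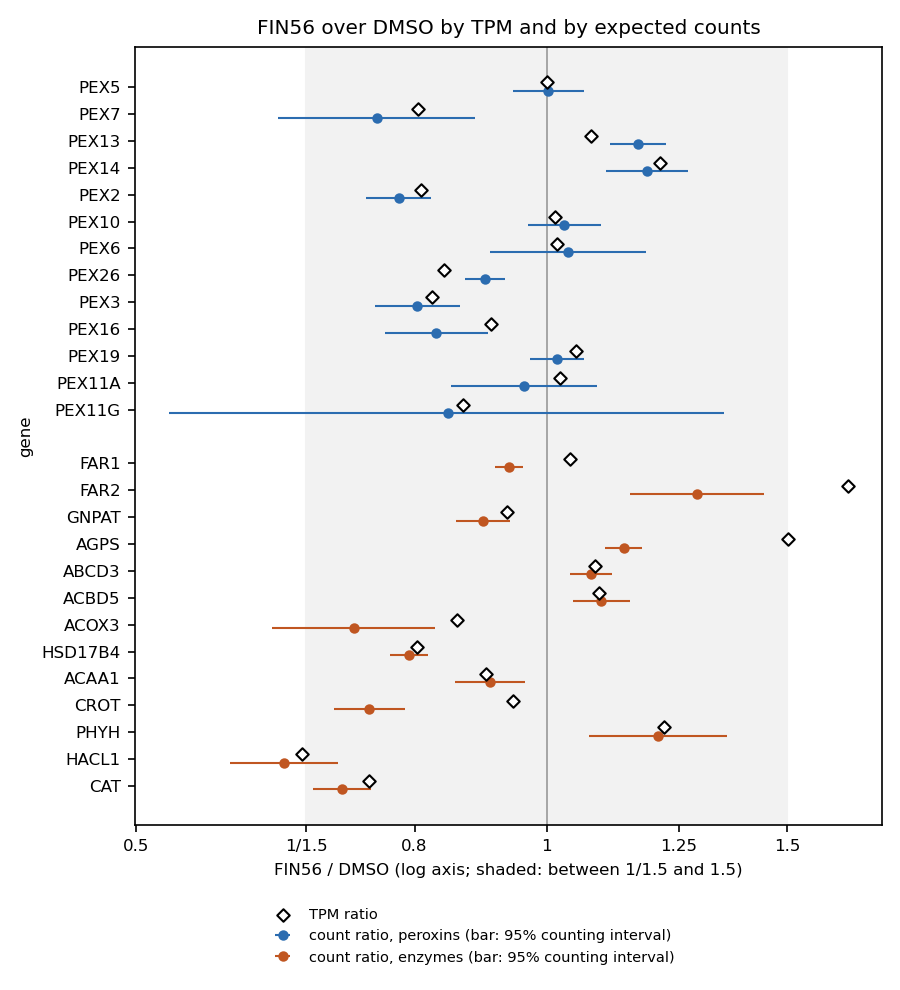
FIN56 over DMSO for the 26 genes tested, on a log axis. Circles are ratios of expected counts scaled by library totals, with bars for the 95% counting interval (peroxins in blue, enzymes in orange), open diamonds are TPM ratios, and the shaded band runs from 1/1.5 to 1.5. The diamonds of FAR2 (1.66) and AGPS (1.502) lie beyond the upper ends of their count intervals, while HACL1 lies near 1/1.5 by both measures.

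Ether lipid synthesis begins with 4 of the enzymes. FAR1 and FAR2 reduce fatty acyl-CoA to the fatty alcohol that becomes the ether chain. FAR1 had 73.1 TPM in DMSO and 75.9 TPM in FIN56, a TPM ratio of 1.04, but its count ratio was 0.937 (0.916 to 0.960), so its side of 1 depended on the scale. FAR2, at a lower level, rose from 11.1 TPM to 18.5 TPM, a ratio of 1.66. Its expected counts were 543.25 in DMSO and 728.25 in FIN56, a count ratio of 1.29 (1.15 to 1.44) that did not reach 1.5. By both measures FAR2 was higher in FIN56, and only the size of the difference changed.

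GNPAT attaches the acyl chain to dihydroxyacetone phosphate, and AGPS then exchanges that chain for the fatty alcohol and so forms the ether bond. GNPAT had 34.6 TPM in DMSO and 32.4 TPM in FIN56, with a count ratio of 0.898 (0.858 to 0.939). AGPS rose from 41.3 TPM to 62.1 TPM, a ratio of 1.502 that just met the threshold. Its expected counts were 7367.4 in DMSO and 8729.91 in FIN56, a count ratio of 1.14 (1.10 to 1.17). These consecutive enzymes, which work as a complex, thus lay on opposite sides of 1 by TPM and by counts. Summed over the 4 enzymes, the level was 160 TPM in DMSO and 189 TPM in FIN56. The median log2 ratio of the 4 was 0.32 by TPM but 0.05 by counts, with 2 count intervals above 1 and 2 below.

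TPM and count ratios part where the effective length that the quantification assigned to a gene differs between the libraries, since TPM divides by that length. The length implied by expected counts and FPKM, a level scaled for length and library size, was 3801 bases in DMSO and 2943 bases in FIN56 for AGPS, a ratio of 0.774. For FAR2 it was 1040 bases in DMSO and 824 bases in FIN56, a ratio of 0.793. For CROT it was 2273 bases in DMSO and 1824 bases in FIN56, a ratio of 0.802. These 3 genes were the members whose implied length was shorter in FIN56 by 1.2 times or more, out of 25 with at least 1 FPKM in both libraries (12.0%, against 2.89% of the 12603 such genes in all), and no member was longer by that much (against 1.36%). This readout was chosen after the values were seen. Implied length follows the mix of transcripts estimated for a gene and, for all genes alike, the fragment length, and its median ratio over all genes tested was 0.998. GENCODE release 44 lists 10 protein-coding transcripts of AGPS, from 815 to 7633 bases long, and 8 of FAR2, from 1705 to 3698 bases. The implied length of FAR2 lay below its shortest coding transcript in both libraries, and 25 transcripts of FAR2 are listed in all. Its level may therefore include transcripts that are not coding. Which transcripts shifted, and whether the coding ones of FAR2 rose, was not tested, since the values are per gene.

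**Figure D3:**
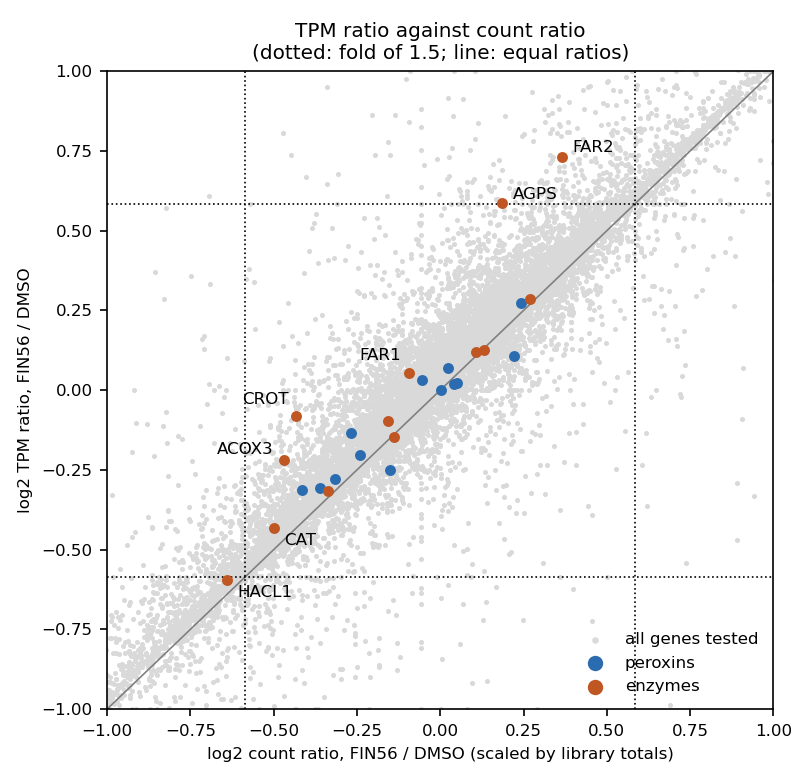
Log2 TPM ratio (vertical) against log2 count ratio (horizontal), FIN56 over DMSO, for all genes tested (grey), peroxins (blue) and enzymes (orange), with genes beyond 1 on either axis not shown. On the diagonal line both ratios are equal and dotted lines mark a fold of 1.5. FAR2 (0.73 by TPM, 0.36 by counts), AGPS (0.59 and 0.19), CROT (-0.08 and -0.43) and ACOX3 (-0.22 and -0.47) lie farthest above the line among the labelled genes.

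Entry of fatty acids into the organelle was represented by ABCD3 and ACBD5. ABCD3, a membrane transporter for branched and dicarboxylic acids, had 41.1 TPM in DMSO and 44.6 TPM in FIN56, with a count ratio of 1.08 (1.04 to 1.12). ACBD5, which binds very long chain acyl-CoA and tethers peroxisomes to the endoplasmic reticulum, had 19.9 TPM in DMSO and 21.8 TPM in FIN56, with a count ratio of 1.10 (1.05 to 1.15). Neither was called. On the 6 other scales the log2 ratio ran from 0.06 to 0.14 for ABCD3 and from 0.07 to 0.17 for ACBD5.

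Beta-oxidation proper was represented by ACOX3, HSD17B4 and ACAA1, and each of the 3 had a lower level in FIN56, none past the threshold. ACOX3, an oxidase of branched chains, had 4.75 TPM in DMSO and 4.08 TPM in FIN56. HSD17B4, which carries out the hydration and dehydrogenation steps, had 100.03 TPM in DMSO and 80.3 TPM in FIN56, with a count ratio of 0.793 (0.767 to 0.819). The thiolase ACAA1 had 34.2 TPM in DMSO and 30.9 TPM in FIN56, with a count ratio of 0.909 (0.856 to 0.964). On the 6 other scales the log2 ratio ran from -0.47 to -0.12 for ACOX3, from -0.36 to -0.13 for HSD17B4 and from -0.19 to -0.04 for ACAA1. Among the 9 other peroxisomal beta-oxidation genes tested, 6 had TPM ratios above 1 and 3 below, with a median log2 TPM ratio of 0.11. EHHADH, the other bifunctional enzyme, had 5.55 TPM in DMSO and 7.19 TPM in FIN56, with a count ratio of 1.43 (1.31 to 1.57), and was named after its values were seen. The bifunctional enzymes EHHADH and HSD17B4 therefore lay on opposite sides of 1.

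Shortened chains leave the peroxisome as carnitine esters, made by CROT for medium chains and by CRAT for acetyl groups. CROT had 23.4 TPM in DMSO and 22.1 TPM in FIN56, a TPM ratio of 0.944, while its count ratio was 0.741 (0.698 to 0.787), from 2497 counts in DMSO and 1927 in FIN56. CRAT had 4 expected counts in DMSO and 0 in FIN56, which allows up to 3 counts, so it stayed outside the genes tested and no fold was read from it.

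Alpha-oxidation removes a single carbon from branched acids such as phytanic acid before beta-oxidation can act. PHYH, its hydroxylase, had 7.95 TPM in DMSO and 9.69 TPM in FIN56, with a count ratio of 1.21 (1.07 to 1.36). HACL1, the lyase that follows, fell from 13.9 TPM to 9.23 TPM, a ratio of 0.662. Its expected counts were 1190.64 in DMSO and 795.73 in FIN56, a count ratio of 0.642 (0.586 to 0.703). Consecutive enzymes of this path lay on opposite sides of 1, with intervals that did not include 1 in either case. CAT, the catalase, had 41.5 TPM in DMSO and 30.7 TPM in FIN56, a TPM ratio of 0.741, and a count ratio of 0.708 (0.674 to 0.743). After HACL1, catalase had the lowest TPM ratio of the 26 genes, short of the threshold of 1/1.5.

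The position of the called members was looked at, with the neighbours named, after the values were seen, since overlapping genes can share reads. In GENCODE release 44 on GRCh38, 8 of the 26 genes tested share exon bases with a gene on the opposite strand whose expected counts reached 10 in both libraries. That share, 30.8%, was also that of the 17322 tested genes found in this annotation. All 3 called genes were among these 8, and none was among the other 18. Over those 17322 genes, 18.8% of those with such a partner and 18.6% of those without were called in either direction, so the count among the members is not read as a property of the group. HACL1 lies head to head with BTD, the biotinidase gene, with starts 511 bases apart and 470 shared exon bases. BTD had 9.44 TPM in DMSO and 5.55 TPM in FIN56, a ratio of 0.588, and its count ratio was 0.583 (0.527 to 0.644). FAR2 shares 314 exon bases with ERGIC2, which had 123.5 TPM in DMSO and 179.7 TPM in FIN56, and 448 with the long noncoding RNA AC009318.1, which had 0.30 TPM in DMSO and 0.25 TPM in FIN56, with a count interval that included 1 (0.476 to 1.34). AGPS shares 220 exon bases with TTC30B and 11 with NFE2L2, which encodes the oxidative stress factor NRF2 and starts 10 bases away. NFE2L2 had 77.1 TPM in DMSO and 90.6 TPM in FIN56, a count ratio of 1.15 (1.11 to 1.18) beside the 1.14 of AGPS. Each of the 5 members with a partner but no call (PEX10, PEX13, PEX14, PEX26 and ACBD5) had 1 such partner, which lay on the same side of 1 as the member in 4 of 5 pairs by TPM ratio and in 2 of 5 by count ratio.

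The expected counts of HACL1, FAR2 and AGPS and of these partners are not whole numbers, so some of their reads were divided between them and other genes. The kit preserves strand, but whether the counting used it is not stated in the sources used here. The counts of HACL1 and BTD add to whole numbers in each library (1190.64 and 1047.36 in DMSO, 795.73 and 635.27 in FIN56). So do those of PEX10 and RER1, and of FAR2 with ERGIC2 and AC009318.1. Those of AGPS, PEX14, PEX26 and ACBD5 with their partners do not. Reads were thus divided between opposite-strand genes in the former sets, whose values are not separate. Without strand, reads from such overlapping genes cannot be told apart. Among the 16 members with whole counts in both libraries none was called, against 3 of the 10 others. Over all genes tested, the share called in either direction was 18.5% with whole counts and 18.9% without.

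The start regions of the called genes and of CAT are shown because HACL1 and CAT had the lowest, and FAR2 and AGPS the highest, TPM ratios of the 26. Each is 250 bases before to 50 after a start, from RefSeq on GRCh38.p14, in the direction of the gene, and 23 of the 27 genes had such a window, in 36 windows in all. ACAA1, CRAT, PEX2 and PEX14 had no entry. Capitals mark matches on either strand to the nuclear receptor hexamer AGGTCA, to the CCAAT box or to the core GGGCGG of the GC box. FAR2 has 2 listed starts, of which the one nearest the start of the gene is shown. The windows lie at chr2:177392523-177392822 (AGPS, plus strand), chr12:29149028-29149327 (FAR2, plus strand), chr3:15601520-15601819 (HACL1, minus strand) and chr11:34438684-34438983 (CAT, plus strand).
AGPS: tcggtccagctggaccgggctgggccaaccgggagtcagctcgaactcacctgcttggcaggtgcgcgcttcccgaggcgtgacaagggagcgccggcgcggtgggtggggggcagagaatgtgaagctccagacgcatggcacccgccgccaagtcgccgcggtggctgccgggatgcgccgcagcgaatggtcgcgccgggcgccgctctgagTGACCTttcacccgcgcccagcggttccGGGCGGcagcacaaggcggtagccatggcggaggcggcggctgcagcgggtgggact
FAR2: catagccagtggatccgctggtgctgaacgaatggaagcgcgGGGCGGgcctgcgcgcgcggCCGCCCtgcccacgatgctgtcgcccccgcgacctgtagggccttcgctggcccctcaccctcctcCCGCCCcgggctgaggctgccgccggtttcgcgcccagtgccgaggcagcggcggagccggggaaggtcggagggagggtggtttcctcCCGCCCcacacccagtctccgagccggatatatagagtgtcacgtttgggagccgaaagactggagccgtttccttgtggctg
HACL1: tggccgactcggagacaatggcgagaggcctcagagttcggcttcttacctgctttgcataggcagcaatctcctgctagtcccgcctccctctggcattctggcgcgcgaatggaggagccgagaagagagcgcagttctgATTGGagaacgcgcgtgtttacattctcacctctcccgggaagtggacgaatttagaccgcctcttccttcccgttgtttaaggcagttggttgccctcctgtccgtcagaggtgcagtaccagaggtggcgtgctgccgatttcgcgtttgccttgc
CAT: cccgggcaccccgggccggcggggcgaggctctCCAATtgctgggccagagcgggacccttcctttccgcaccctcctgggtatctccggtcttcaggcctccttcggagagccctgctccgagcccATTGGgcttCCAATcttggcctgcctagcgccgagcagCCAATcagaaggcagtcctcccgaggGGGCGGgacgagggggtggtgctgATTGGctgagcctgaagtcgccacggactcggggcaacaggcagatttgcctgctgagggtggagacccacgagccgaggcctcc

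The GC box core was in 69.4% of the 36 windows, against 45.0% of all 35116 windows, and the median GC content was 64.7% against 58.7%. CCAAT was in 25% of the 36 windows against 34.6% of all, and the CAT window held 5 matches to it while HACL1 held 1. AGGTCA, the hexamer that nuclear receptors recognise, was in 2 of the 36 windows (5.56%, against 13.8% of all), 1 of AGPS and 1 of FAR2, the latter at the start not shown. The full direct repeat AGGTCANAGGTCA, bound by PPAR and RXR dimers and itself made of that hexamer, was in none of the 36 windows and in 0.0228% of all. The antioxidant response core TGACNNNGC was in 11.1% against 13.3% of all, and the E-box CACGTG was in 8.33% against 7.26%. Such matches describe the letters in these windows and say nothing of binding.

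Set against each other, the 13 peroxins had a median log2 TPM ratio of 0.00 and the 13 enzymes tested one of -0.08, against 0.05 over all genes tested. The difference between these medians was 0.08 by TPM and by counts, 0.03 by the deposited rlog values and 0.02 among the 16 members with whole counts. The median of the peroxins was itself below 0 in 7 of the 14 alternatives. Enzymes were spread more widely than peroxins, from -0.59 to 0.73 against -0.31 to 0.27, with middle ranges (25th to 75th percentile) 0.35 and 0.28 wide against 0.53 for all genes. TPM ratios above 1 were found for 7 of 13 peroxins and 6 of 13 enzymes, of which PEX11A and FAR1 lay below 1 by counts. PEX5, PEX6 and PEX10 lay so close to 1 that the small shift all genes share with FPKM or with centring put them below it. Count intervals excluded 1 for all 13 enzymes tested (5 above and 8 below) and for 7 of 13 peroxins (2 above and 5 below). Over both groups 13 of 26 intervals lay below 1 (against 31.0% of all genes tested) and 7 above (against 31.3%). Many of these genes are deeply counted, and the intervals do not include the error of a second culture.

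**Figure D4:**
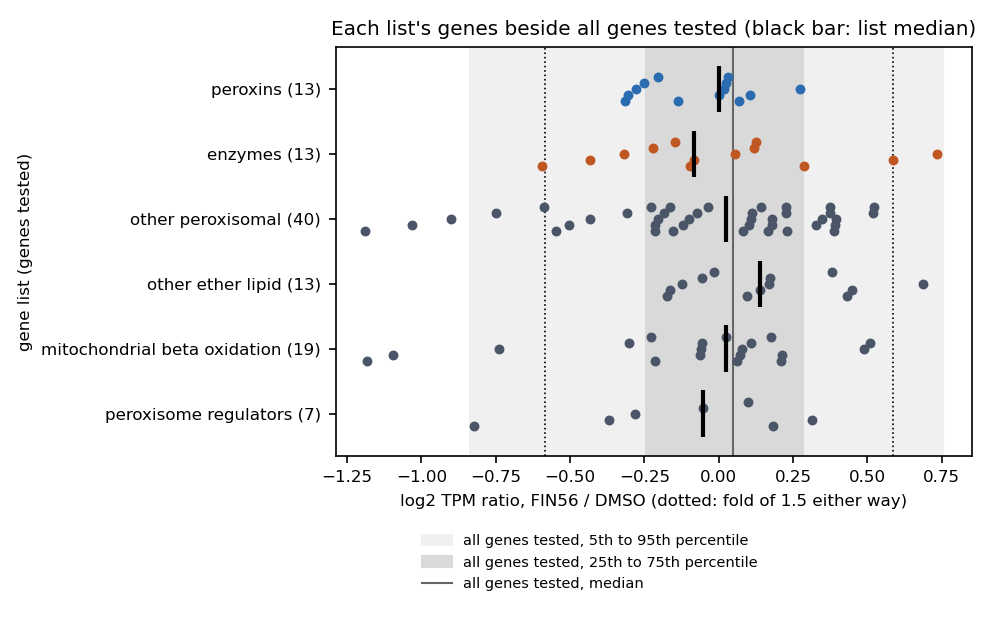
Log2 TPM ratio, FIN56 over DMSO, of each gene tested in the peroxins, the enzymes and 4 other lists, with the number of genes in brackets and a black bar at each list's median. Grey bands give the 5th to 95th and the 25th to 75th percentiles of all genes tested, and dotted lines a fold of 1.5. The medians of peroxins (0.00) and enzymes (-0.08) lie within the inner band, as do those of the other lists, and the sign of the peroxin median changes with the scaling.

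The remaining genes of the organelle were looked at in the same way. Of 40 other peroxisomal genes tested, 5 fell past the threshold (12.5%, against 10.2% of all genes) and 0 rose (against 8.52%), with a median log2 TPM ratio of 0.02 that changed sign in 6 alternatives. PECR, an enoyl-CoA reductase, fell from 5.41 TPM to 2.37 TPM. DHRS4, a retinal and carbonyl reductase with close copies beside it in the genome, fell from 14.7 TPM to 7.20 TPM, and its divided counts make that value uncertain. TMEM135, a membrane protein linked to organelle dynamics and cholesterol transport, fell from 10.9 TPM to 5.83 TPM, but its count ratio of 0.673 did not pass the threshold. PXMP2, which forms a channel for small solutes in the peroxisomal membrane, fell from 100.46 TPM to 59.8 TPM, and its count ratio was 0.544 (0.516 to 0.574). IDH1, a source of NADPH in cytosol and peroxisome, fell from 57.2 TPM to 38.1 TPM, a ratio of 0.665 near the threshold. PRDX5, a peroxiredoxin and the most abundant of this list, had 430.8 TPM in DMSO and 483.0 TPM in FIN56, so that peroxide-removing enzymes PRDX5 and CAT lay on opposite sides of 1.

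Other genes of ether lipid metabolism gave 1 rise among 13 genes tested (7.69%, against 8.52% of all genes) and 0 falls (against 10.2%), with a median log2 TPM ratio of 0.14 (0.04 to 0.14 over the alternatives). The riser was TMEM86A, which cleaves lysoplasmalogens, from 0.36 TPM to 0.58 TPM, but it rested on 60 counts in DMSO and 80 in FIN56 and its count interval included 1 (0.905 to 1.82). ALDH3A2, which oxidizes fatty aldehydes and was the most abundant of this list, had 177.1 TPM in DMSO and 158.2 TPM in FIN56. PEDS1, which introduces the vinyl ether bond of plasmalogens, had 49.5 TPM in DMSO and 55.8 TPM in FIN56, with a count interval that included 1 (0.993 to 1.07), and was named after its values were seen.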

How the data were processed

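Poly(A) RNA libraries of HSC-3 cells, 1 per condition, were prepared with a stranded kit. The study's methods describe tumor samples and were assumed to apply to these libraries. Per the labels and those methods, reads were aligned with STAR 2.6.1a to GRCh38 with an Ensembl annotation and quantified with RSEM 1.3.1. The deposited expected counts are unnormalized and need not be whole. The deposited TPM values are scaled for effective length and have the same sum in each library. The deposited FPKM values are scaled for effective length and for library size. The deposited rlog values, on a log2 scale, came from DESeq2 1.26.0. Each of the 8 columns was assigned to its library through its name.

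Ratios of TPM, compared in whole hundredths, were the main measure, for genes whose expected counts reached 10 in both libraries. Expected counts were rounded to whole numbers for the exact Clopper-Pearson intervals at a level of 95% and for the scaling factors of edgeR 4.0.16 (TMM) and DESeq2 1.42.0 (median-of-ratios). The reads carry no molecular identifiers, so they are not independent molecules. Implied length was expected counts divided by FPKM and by the library total. All 27 genes are named. Of each other list (other peroxisomal, other ether lipid, mitochondrial beta-oxidation and peroxisome regulator genes), up to 8 genes past the fold, largest first, and the most abundant gene are named. The values of some single genes of the lists are not reported here. The members and lists were chosen with earlier results of these data known. Gene positions and exons came from GENCODE release 44, later than the annotation the authors name. The calls and intervals were tested on simulated counts scaled by library totals, not on TPM. That simulation held no change of effective length, no divided reads and no variation between cultures. Computation used R 4.3.3 and Python 3.11.15, with pandas 2.3.3, scipy 1.17.1, numpy 2.4.6 and, for plots, matplotlib 3.10.9.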

Additional observations from a re-analysis of the deposited data

How the results depend on the processing

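Under 14 alternatives, 13 of them planned, the medians of all members, peroxins and enzymes, and the difference between the last 2, moved by less than 0.09 (log2), the median half-width of the members' counting intervals. Of these, 8 alternatives (filters, thresholds and pseudocounts) cannot move a gene's ratio across 1. On the 6 other scales 21 of 26 genes kept their side of 1. PEX11A and FAR1 changed it by counts, and PEX5, PEX6 and PEX10 only through the shift that FPKM and centring give all genes. The 2 genes raised by TPM became 1 with FPKM, with a pseudocount of 1 TPM, and, an alternative chosen after seeing the data, with ratios centred on the median of all genes. They became 0 with expected counts scaled by library totals, TMM or median-of-ratios factors, with rlog differences, at a threshold of 2, and among the 16 members with whole counts. The 1 gene lowered, HACL1, became 0 with rlog, with a pseudocount of 1 TPM, at a threshold of 2 and with whole counts, and became 2, with CAT, at a looser threshold of 5/4. Whole counts left 3 members with counting intervals above 1, of 7. Rlog and pseudocounts draw ratios towards 1 by construction, and whole counts leave fewer genes. The cause of the other moves was not tested.

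Over all genes tested, 1480 were raised and 1767 lowered by TPM (45.6% of those called were raised), against 7 and 16 (30.4%) by rlog difference. The counts changed to 3757 and 3535 at 5/4, 473 and 573 at 2, 539 and 725 with a pseudocount of 1 TPM, 3856 and 4090 without a minimum, 740 and 1000 with at least 50 counts, 693 and 902 with at least 1 TPM, and 764 and 953 with whole counts. No paired analysis was possible because only 1 library was made per condition, which also means that none could be left out. Depth limits PEX11G and CRAT most.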

Other observations

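Mitochondrial beta-oxidation, which takes over the chains that peroxisomes shorten, had 3 of 19 genes tested lowered past the threshold (15.8%, against 10.2% of all genes tested) and 0 raised (against 8.52%), with a median log2 TPM ratio of 0.03 that turned negative in 2 alternatives. CPT1B, a carnitine palmitoyltransferase best known from muscle, fell from 11.2 TPM to 4.95 TPM. ACADS, the dehydrogenase of short chains, fell from 7.40 TPM to 3.46 TPM, and its count ratio was 0.431 (0.372 to 0.4996). ECI1, which moves double bonds of unsaturated chains, fell from 50.1 TPM to 30.00 TPM. ACADVL, the dehydrogenase of very long chains and the most abundant of the list, had 267.8 TPM in DMSO and 217.5 TPM in FIN56.

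Of 7 nuclear receptors and coactivators of peroxisomal genes tested, NR1H3 alone was called (14.3% lowered, against 10.2% of all genes tested). NR1H3, the oxysterol receptor LXR alpha, fell from 9.97 TPM to 5.63 TPM, and its count ratio was 0.509 (0.436 to 0.592). RXRA, the shared partner of these nuclear receptors and the most abundant of the list, had 32.4 TPM in DMSO and 34.7 TPM in FIN56. The list's median log2 TPM ratio was -0.05, and ranged over the alternatives from -0.19 with TMM to 0.10 with whole counts, the one alternative above 0. PPARGC1A had 0 counts in both libraries.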
